A study of Mus musculus with 11 samples.

Results

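The genes described here encode core subunits of the Polycomb repressive complexes, which write and read the histone modification H3K27me3. They are *Ezh1*, *Ezh2*, *Eed* and *Suz12* of Polycomb repressive complex PRC2, and *Cbx2*, *Cbx8*, *Ring1*, *Rnf2* and *Bmi1* of PRC1. The 9 genes were chosen by name from 21755 protein-coding genes on chromosomes 1 to 19 and X. For each of them, H3K27me3 peaks were read over a window made of the gene body and 10 kb either side on the mouse assembly GRCm38 (mm10).

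PRC2 methylates lysine 27 of histone H3. EZH1 and EZH2 are its alternative catalytic subunits, SUZ12 holds the complex together, and EED binds the finished modification and stimulates further methylation nearby. In canonical PRC1, the chromodomain proteins CBX2 and CBX8 bind H3K27me3, RING1 and RNF2 are the ubiquitin ligases that modify histone H2A, and BMI1 is a Polycomb group RING finger (PCGF) protein that pairs with them. In the embryonic forebrain, these complexes keep genes of other regions and of later stages silent, and BMI1 is known for its part in the self-renewal of neural stem cells.

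The samples came from wild-type C57BL/6J mouse embryos, from the medial (MGE), caudal (CGE) and lateral (LGE) ganglionic eminences, which lie ventrally, and from the somatosensory cortex (CTX), which lies dorsally. H3K27me3 was profiled by CUT&Tag, in which an antibody tethers a transposase next to nucleosomes with the modification so that the DNA around them is tagged and sequenced. The 11 samples comprise 2 from MGE and 3 each from CGE, LGE and CTX, all without treatment. The study's text places this assay at E12.5, whereas the protocol in the labels mentions E12.5 and E14.5 tissue together and also mentions pooling nuclei of the regions, so the lists are named here by the region in each label.

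Reads of a region's samples were merged by the authors ahead of peak calling, so each region has 1 list of broad peaks. No value below therefore has a replicate error, no test between regions was possible, and a difference between lists cannot be told apart from a difference between libraries. The lists held 15384 to 19196 peaks and covered 24.5 to 32.9 Mb, with the fewest and weakest peaks in MGE and the most in CGE. The lists carry no read counts. By the depths per library in the study's methods, CGE was sequenced most, followed by CTX, LGE and MGE, which is also the order of the peak counts, and the part of depth in differences between lists was not tested. Genes known for their region did not all separate the lists. Over the gene body, the MGE genes *Nkx2-1* and *Lhx6* were covered to 76.7% and 39.3% in MGE, beside 77.7% to 78.2% and 40.7% to 51.5% in the other lists. The CGE gene *Nr2f2* was covered to 20.4% in CGE and 31.7% to 34.4% elsewhere. At its promoter CGE did not stand apart, with 54.55% beside 54.85% in LGE, 55.2% in CTX and 100% in MGE. The cortical gene *Emx1* was covered to 20.6% in CTX and 41.7% to 42.2% elsewhere, but its promoter to 97.35% or more in every list, and *Neurod6*, another cortical gene, had no covered base at the promoter or in the body. Over the gene body, other genes went at least partly against the region they are known for. *Sp8*, a gene of the LGE, had 63.4% in LGE and its lowest value in CTX (30.9%). *Dlx2*, a gene of all eminences, had 19.6% in MGE but 64.5% in CGE and 63.0% in LGE, beside 65.0% in CTX. The promoter of *Sp8* was covered to 16.5% in MGE and 0% in the other lists, and that of *Dlx2* to 0% in every list.

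Stretches that lay under peaks in all 4 lists are printed first, because 56.5% of the bases covered in any list near the 9 genes were covered in all 4. Each is the 300-base stretch, outside annotated exons, that holds the most CG dinucleotides among the bases covered in all 4 lists of that peak, so its CG count was set by that choice. Capitals mark CG. They are written 5′ to 3′ on the plus strand of GRCm38, from the RefSeq copy of the assembly. The stretches stand for the peak between *Cbx2* and *Cbx8* (chr11:119034424-119034723, 19 CG), the wide peak upstream of *Cbx8* (chr11:119041408-119041707, 27 CG), the peak inside *Bmi1* (chr2:18681220-18681519, 12 CG) and the peak downstream of *Bmi1* (chr2:18688802-18689101, 47 CG).
Cbx2 to Cbx8 peak: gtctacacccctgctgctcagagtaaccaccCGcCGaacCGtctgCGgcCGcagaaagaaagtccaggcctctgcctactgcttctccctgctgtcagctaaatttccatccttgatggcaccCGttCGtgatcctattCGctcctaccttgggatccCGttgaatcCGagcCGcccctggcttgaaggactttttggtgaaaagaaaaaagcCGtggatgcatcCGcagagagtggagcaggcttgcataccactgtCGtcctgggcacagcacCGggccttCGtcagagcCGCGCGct
Cbx8 upstream peak: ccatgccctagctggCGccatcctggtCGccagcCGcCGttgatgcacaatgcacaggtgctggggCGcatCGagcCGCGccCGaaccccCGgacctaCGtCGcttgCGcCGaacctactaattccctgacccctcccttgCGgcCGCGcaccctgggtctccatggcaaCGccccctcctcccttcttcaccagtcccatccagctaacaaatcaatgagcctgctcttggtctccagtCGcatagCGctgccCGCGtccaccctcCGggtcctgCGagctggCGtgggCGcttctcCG
Bmi1 intron peak: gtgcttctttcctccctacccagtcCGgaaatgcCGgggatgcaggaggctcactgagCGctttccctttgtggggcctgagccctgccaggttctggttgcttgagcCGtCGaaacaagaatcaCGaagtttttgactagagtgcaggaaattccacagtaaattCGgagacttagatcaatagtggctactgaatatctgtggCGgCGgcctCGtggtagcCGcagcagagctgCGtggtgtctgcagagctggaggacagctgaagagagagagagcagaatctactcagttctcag
Bmi1 downstream peak: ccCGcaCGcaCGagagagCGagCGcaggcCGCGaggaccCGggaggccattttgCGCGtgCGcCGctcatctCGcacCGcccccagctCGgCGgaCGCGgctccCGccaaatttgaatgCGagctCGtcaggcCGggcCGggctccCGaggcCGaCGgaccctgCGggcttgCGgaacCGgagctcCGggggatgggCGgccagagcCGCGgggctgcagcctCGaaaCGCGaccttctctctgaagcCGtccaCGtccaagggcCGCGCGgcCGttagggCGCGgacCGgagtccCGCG

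The bases immediately upstream of the 5′ ends of *Cbx8*, *Bmi1*, *Suz12* and *Ring1* are shown next, on each gene's own strand and from the RefSeq promoter table of GRCm38. They were chosen because peaks flanked the first pair at a distance, reached *Ring1* in the LGE list alone, and touched *Suz12* in none. The *Cbx8* sequence (chr11:119040970-119041163, minus strand) stops at the first annotated exon base, and the others hold 250 bases (*Bmi1*, chr2:18676768-18677017, plus strand; *Suz12*, chr11:79992856-79993105, plus strand; *Ring1*, chr17:34024681-34024930, minus strand). Capitals again mark CG.
Cbx8 promoter: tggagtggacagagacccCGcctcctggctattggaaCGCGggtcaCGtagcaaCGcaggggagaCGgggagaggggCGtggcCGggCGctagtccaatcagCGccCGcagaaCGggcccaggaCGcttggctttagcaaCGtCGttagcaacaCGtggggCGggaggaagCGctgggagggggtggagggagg
Bmi1 promoter: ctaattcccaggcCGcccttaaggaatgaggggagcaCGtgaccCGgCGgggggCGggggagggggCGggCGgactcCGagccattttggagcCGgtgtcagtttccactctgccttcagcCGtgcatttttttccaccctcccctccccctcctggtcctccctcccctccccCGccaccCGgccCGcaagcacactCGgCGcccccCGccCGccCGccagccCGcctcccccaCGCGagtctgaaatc
Suz12 promoter: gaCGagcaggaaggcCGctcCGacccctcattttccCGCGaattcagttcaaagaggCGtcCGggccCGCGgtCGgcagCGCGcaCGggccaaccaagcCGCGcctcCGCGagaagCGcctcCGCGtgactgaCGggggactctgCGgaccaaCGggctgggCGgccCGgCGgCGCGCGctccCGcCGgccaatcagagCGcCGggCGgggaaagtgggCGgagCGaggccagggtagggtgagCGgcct
Ring1 promoter: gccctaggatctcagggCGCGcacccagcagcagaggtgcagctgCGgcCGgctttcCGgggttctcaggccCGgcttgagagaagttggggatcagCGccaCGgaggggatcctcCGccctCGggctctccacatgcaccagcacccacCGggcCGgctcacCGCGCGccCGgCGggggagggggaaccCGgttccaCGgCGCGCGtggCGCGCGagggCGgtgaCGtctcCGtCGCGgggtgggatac

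The first comparison asked which of the complex genes lay near the modification that the complexes handle. Peaks were concentrated at the genes of the CBX readers, neighbours whose windows share a peak, and of BMI1. Few bases were covered at the genes of the methyltransferase PRC2 and of the RING ligases, as at most protein-coding genes. The share of the window under peaks, averaged over the 4 lists, was 51.8% at *Cbx8*, 27.4% at *Bmi1* and 19.1% at *Cbx2*. The other 6 genes averaged between 0% (*Suz12* and *Rnf2*) and 2.35% (*Ring1*), beside a median of 0% over all protein-coding genes in each list. Coverage at least as large as that of *Ezh1* was found for 30.8% (LGE) to 39.3% (MGE) of genes, and as that of *Ring1* in LGE for 12.2%. The 9 windows together, with shared bases counted once, span 402361 bases and were covered to 5.78% (MGE), 6.48% (CGE), 6.10% (LGE) and 6.33% (CTX). Of these covered bases, the windows of *Cbx2*, *Cbx8* and *Bmi1* held 97.1% (MGE), 95.2% (CGE), 88.6% (LGE) and 93.3% (CTX). Over the windows of all protein-coding genes, the covered share was 1.54% (MGE), 1.99% (CGE), 1.64% (LGE) and 1.84% (CTX).

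**Figure D1:**
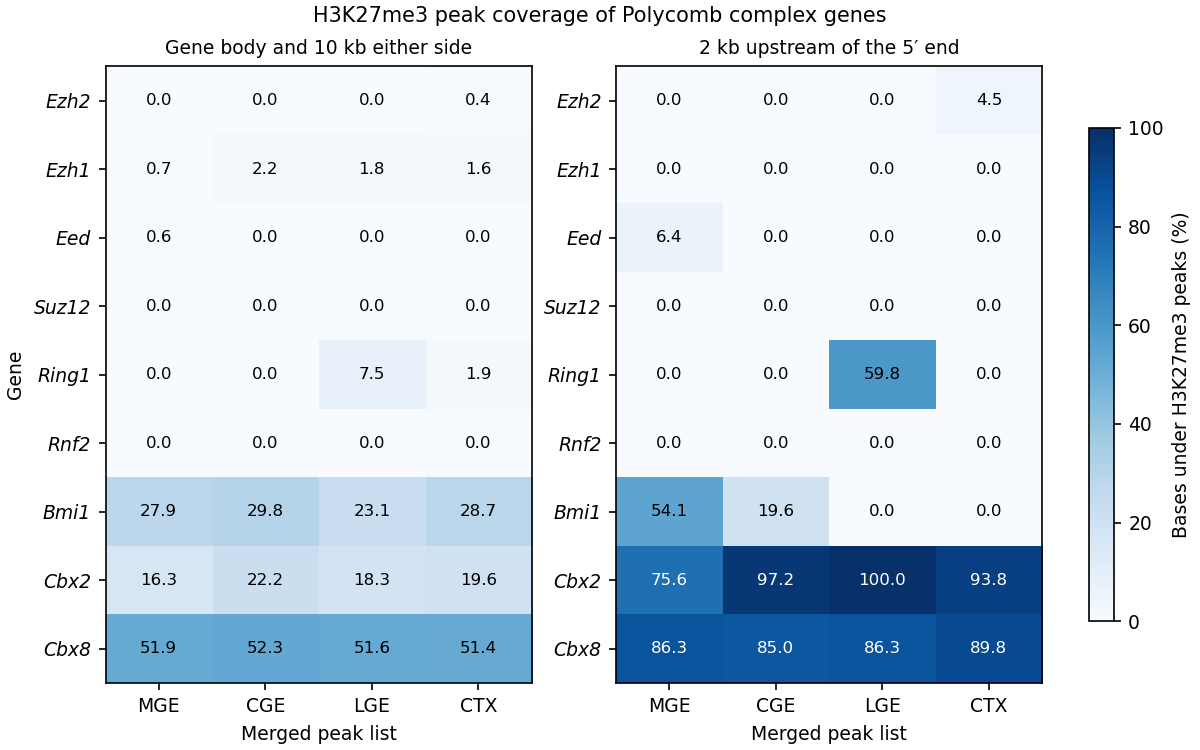
Heat maps of the percentage of bases under H3K27me3 peaks for the 9 Polycomb complex genes (rows) in the merged peak lists of MGE, CGE, LGE and CTX (columns). The left panel covers the gene body and 10 kb either side, where *Cbx8* lies between 51.4% and 52.3% in every list and *Suz12* and *Rnf2* at 0; the right panel covers the 2 kb upstream of the 5′ end, where *Cbx2* and *Cbx8* lie at 75.6% or more in every list.

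Having any covered base in the window did not set these genes apart from other genes. At least 1 covered base was found for 5 of the 9 genes in MGE, against 43.3% of all protein-coding genes, for 4 in CGE (46.0%), for 5 in LGE (44.7%) and for 6 in CTX (47.2%). In all 4 lists it was found for *Ezh1*, *Cbx2*, *Cbx8* and *Bmi1*, which is 4 of 9 genes against 36.1% of all genes. *Suz12* and *Rnf2* had none in any list, which held for 44.3% of all genes. The median window coverage of the 9 genes was 0.650% (MGE), 0% (CGE), 1.81% (LGE) and 1.62% (CTX), beside 0% over all protein-coding genes in each list. Within 10 kb of the 5′ end, the same numbers of members had a covered base, against 36.2%, 38.8%, 37.7% and 40.3% of all genes, with 4 members in every list (29.7%) and 2 in none (51.7%). Within the gene body alone a base was covered for 3 members (MGE), 2 (CGE), 4 (LGE) and 4 (CTX), against 32.3%, 33.9%, 33.6% and 36.0% of all genes, for *Cbx8* and *Bmi1* in every list (26.0%) and for *Ezh1*, *Suz12* and *Rnf2* in none (56.5%). The counts for the 9 genes therefore lay near those of the genome, and what differed among the members was how much of the window was covered.

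The extent of coverage over the gene body and 10 kb either side placed 3 of the genes high among all protein-coding genes. Coverage at least as large as that of *Cbx8* was found for 0.331% of genes (MGE), 0.322% (CGE), 0.230% (LGE) and 0.326% (CTX). For *Bmi1* the corresponding share was 1.33%, 1.42%, 1.96% and 1.24%, and for *Cbx2* it was 3.27%, 2.49%, 2.99% and 2.70%. The peak between *Cbx2* and *Cbx8* gave 3080 of 4619 covered bases of the *Cbx2* window in MGE and 3213 of 6288 in CGE. In LGE it gave 2996 of 5176 and in CTX 2879 of 5551. That peak also counts at *Cbx8*, so the window ranks of these neighbours are not separate instances. Over this window the order *Cbx8*, *Bmi1*, *Cbx2* was the same in all 4 lists. The ranks of *Bmi1* and *Cbx2* depended on the window. Within 10 kb of the 5′ end, coverage at least as large was found for 0.124% to 0.207% of genes at *Cbx8*, but for 3.51% (MGE), 12.5% (CGE), 4.16% (LGE) and 8.69% (CTX) at *Bmi1* and for 20.3%, 9.93%, 15.0% and 12.2% at *Cbx2*, which exceeded *Bmi1* in CGE (15.4% against 13.8% covered). In the gene body alone, *Bmi1* exceeded *Cbx8* in LGE (41.4% against 23.9%) and CTX (24.9% against 20.8%).

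**Figure D2:**
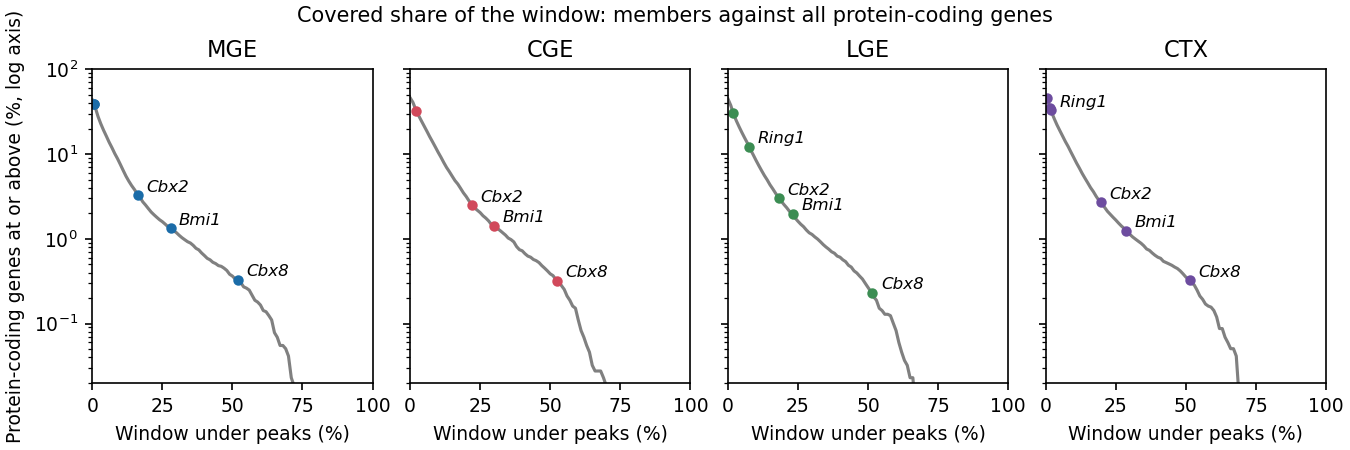
Percentage of protein-coding genes (y axis, log scale) whose window is covered at least as much as the value on the x axis (percentage of the gene body and 10 kb either side under peaks), for each merged list. The grey line is the curve over 21755 protein-coding genes and the points are the Polycomb complex genes with a covered base; *Cbx8* sits where 0.230% to 0.331% of genes remain.

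Promoters were read next. The promoter was taken as the 2 kb before the 5′ end of the gene and was called marked when peaks covered 50% or more of it. Marked promoters were found for *Cbx2* and *Cbx8* in every list, with *Bmi1* added in MGE and *Ring1* added in LGE. This is 3 of 9 in MGE (6.47% of all genes), 2 in CGE (8.33%), 3 in LGE (6.52%) and 2 in CTX (7.14%). In all 4 lists together it is 2 of 9 (4.72%). These calls hold for the upstream side: with the promoter taken as 2 kb to each side of the start, *Cbx8* was covered to 42.5% to 44.9% and marked in no list, and *Cbx2* was covered to 37.8% (MGE), 48.6% (CGE), 50.9% (LGE) and 64.4% (CTX), whereas *Bmi1* in MGE had 37.6% and *Ring1* in LGE 37.5%. With peaks limited to a q-value under 0.001, the *Cbx2* promoter in CTX fell from 93.85% to 0%, *Bmi1* in MGE to 0% and *Ring1* in LGE to 0%, and with lists of equal covered bases the first and the last of these were likewise 0%. The promoters of *Ezh1*, *Ezh2*, *Eed*, *Suz12* and *Rnf2* were marked in no list, as were 89.9% of all promoters. With any 1 covered base as the criterion, 4, 3, 3 and 3 member promoters were touched in MGE, CGE, LGE and CTX, against 22.6%, 24.7%, 24.2% and 26.2% of all promoters, 2 of them in every list (17.5%), and 3 promoters were touched in no list (67.2%). *Cbx2* and *Cbx8* are neighbours, although their promoters lay under different peaks. Their windows share 14966 bases and the peaks within them, so their window values are not separate instances.

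*Cbx2* and *Cbx8* encode paralogous readers of H3K27me3 and lie next to each other on chromosome 11, with *Cbx2* at 119022962 to 119031270 on the plus strand, *Cbx8* at 119036305 to 119040969 on the minus strand, and 5034 bases between their 3′ ends. Their joint window spans 38008 bases, and each list held 3 peaks there. They covered 37.7% of it (MGE), 42.1% (CGE), 39.1% (LGE) and 40.1% (CTX).

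The widest of these peaks began just upstream of *Cbx8* and ran away from the gene. It was 11175 bases wide (MGE), 11354 (CGE), 11496 (LGE) and 10414 (CTX). By width it ranked 18 of 15384 peaks (MGE), 15 of 19196 (CGE), 9 of 16851 (LGE) and 21 of 18785 (CTX). It started 275 bases upstream of the *Cbx8* 5′ end in MGE and LGE, 302 in CGE and 205 in CTX. Its fold enrichment, an average over the peak of the signal relative to the background estimated by the peak caller, was low, at 1.69 (MGE), 1.60 (CGE), 1.69 (LGE) and 1.64 (CTX). Its −log10 q, the peak caller's measure of significance against background, was 19.3, 32.8, 33.8 and 30.0, respectively, above 84.7% to 87.7% of the peaks of each list. The peak was thus among the widest of every list, with low fold enrichment.

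The strongest peak of the locus lay between the 3′ ends of *Cbx2* and *Cbx8* and reached into the *Cbx8* 3′ UTR. Its width was 3080 bases (MGE), 3213 (CGE), 2996 (LGE) and 2879 (CTX), and its 4 starts lay within 30 bases of each other. Its −log10 q was 56.8 (MGE), 114 (CGE), 130 (LGE) and 122 (CTX), above 98.8%, 98.2%, 99.6% and 99.6% of the peaks of the same list. The fold enrichment was 3.13, 2.94, 3.67 and 3.62. The lower −log10 q in MGE went with a lower −log10 q over that list as a whole, whose median was 3.38 against 3.81 to 4.61 in the others, and the part of depth in it was not tested. The peak covered 49.2% of the *Cbx8* 3′ UTR (MGE), 54.8% (CGE), 46.9% (LGE) and 40.8% (CTX).

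The gene body of *Cbx8* between these peaks was free of them. The 5′ UTR, the coding exons and the introns of *Cbx8* had 0 covered bases in all 4 lists. The peak-free interval around its 5′ end was 3770 bases (MGE), 3664 (CGE), 3824 (LGE) and 3899 (CTX). A marked promoter with the 5′ end base itself outside a peak was the rarer case, found for 15.2% of marked promoters (MGE), 15.4% (CGE), 14.0% (LGE) and 13.0% (CTX), a comparison added after the values at *Cbx8* were seen. Over all protein-coding genes the 5′ end base lay under a peak for 19.2%, 20.9%, 20.8% and 22.8%.

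The *Cbx2* promoter carried a weaker peak whose edges moved between lists. It was 1512 bases wide (MGE), 3075 (CGE), 2153 (LGE) and 2575 (CTX), with a −log10 q of 5.33, 5.94, 3.45 and 2.31. The peak ended 224 bases before the 5′ end in MGE and 57 before it in CGE, and reached 36 bases past it in LGE and 697 past it in CTX. The *Cbx2* promoter was covered to 75.6% (MGE), 97.2% (CGE), 100% (LGE) and 93.85% (CTX). CTX was the only list with covered coding bases in *Cbx2*, 116 of 1557. The *Cbx2* 3′ UTR was free of peaks throughout.

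**Figure D3:**
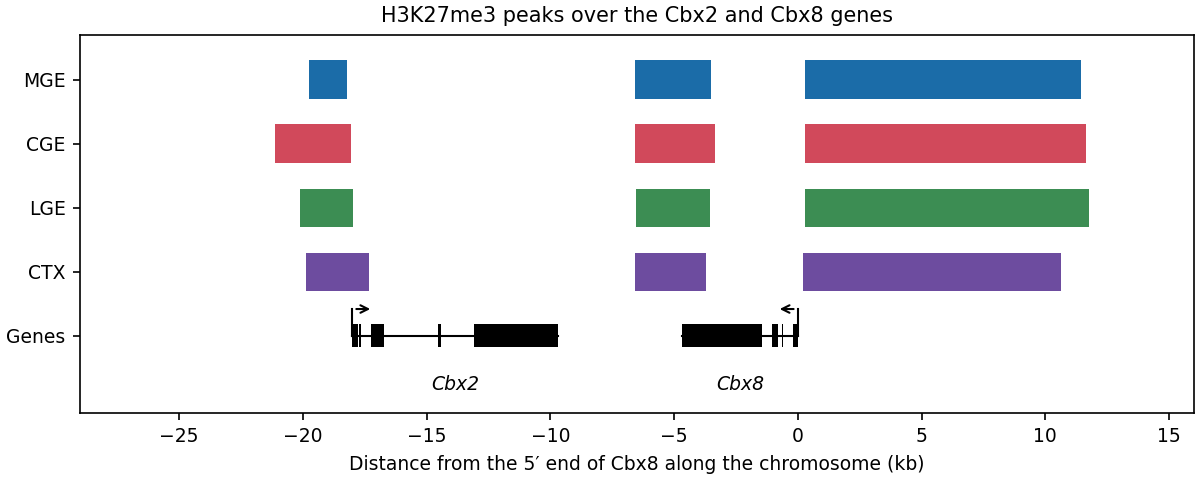
Map of H3K27me3 peaks (coloured bars, one row for each merged list) over *Cbx2* and *Cbx8*, with the distance from the *Cbx8* 5′ end in kb on the x axis, exons as black boxes and arrows at the 5′ ends. The rows hold 3 peaks each at overlapping places, and the gap over the 5′ end of *Cbx8* contains no peak in any list.

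*Bmi1* lies on chromosome 2 at 18677018 to 18686629 on the plus strand. Peaks lay inside the gene and downstream of it in every list, whereas the upstream peaks differed between lists. The window was covered to 27.9% (MGE), 29.8% (CGE), 23.1% (LGE) and 28.7% (CTX). Its promoter was covered to 54.15% in MGE, 19.6% in CGE and 0% in LGE and CTX, so that the threshold of 50% was passed in MGE only, by a narrow margin. This difference between lists depended on the promoter taken: the most covered promoter of any annotated *Bmi1* transcript had 54.15% (MGE), 51.9% (CGE), 100% (LGE) and 41.3% (CTX). With peaks less than 3 kb apart joined, the main promoter had 100% in MGE, 62.6% in CGE and 0% in LGE and CTX.

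Inside *Bmi1*, MGE and CGE had the same peak to the base, 1875 bases wide and 3051 to 4925 bases past the 5′ end. CTX had a peak of 1584 bases there, and in LGE a peak of 3983 bases also took in the place where the other lists had a separate small peak nearer to the 5′ end. The −log10 q of these gene-body peaks was 28.6 (MGE), 48.4 (CGE), 23.5 (LGE) and 15.4 (CTX). They covered 328 of 805 annotated 5′ UTR bases in each list, 112 of 972 coding bases in MGE, CGE and LGE and 53 in CTX, and otherwise lay in introns. Its 3′ UTR was free of peaks throughout.

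Downstream of *Bmi1*, toward *Spag6*, a sperm flagellar gene, the peak spanned 4158 bases (MGE), 5647 (CGE) and 5536 (CTX). In LGE the same place held a peak of 555 bases and one of 2304 bases. The stronger peak of each list there had a −log10 q of 21.1 (MGE), 44.1 (CGE), 61.4 (LGE) and 37.8 (CTX). The peak reached the *Spag6* promoter in CGE (28.5% covered) and CTX (22.4%) and not in MGE or LGE.

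Upstream of *Bmi1*, the peaks lay over *Commd3*, the neighbouring gene on the same strand. MGE had a peak of 1821 bases that ended 918 bases before the *Bmi1* 5′ end, with a −log10 q of 1.66, above 16.7% of its list. CGE had one of 392 bases with a −log10 q of 6.16, and CTX had one of 574 bases at the *Commd3* 5′ end with a −log10 q of 1.77. LGE had none, and its nearest peak upstream lay 67024 bases from the *Bmi1* 5′ end. The base at the *Bmi1* 5′ end was under no peak in any list, and the nearest peak past it began 858 to 1072 bases into the gene.

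**Figure D4:**
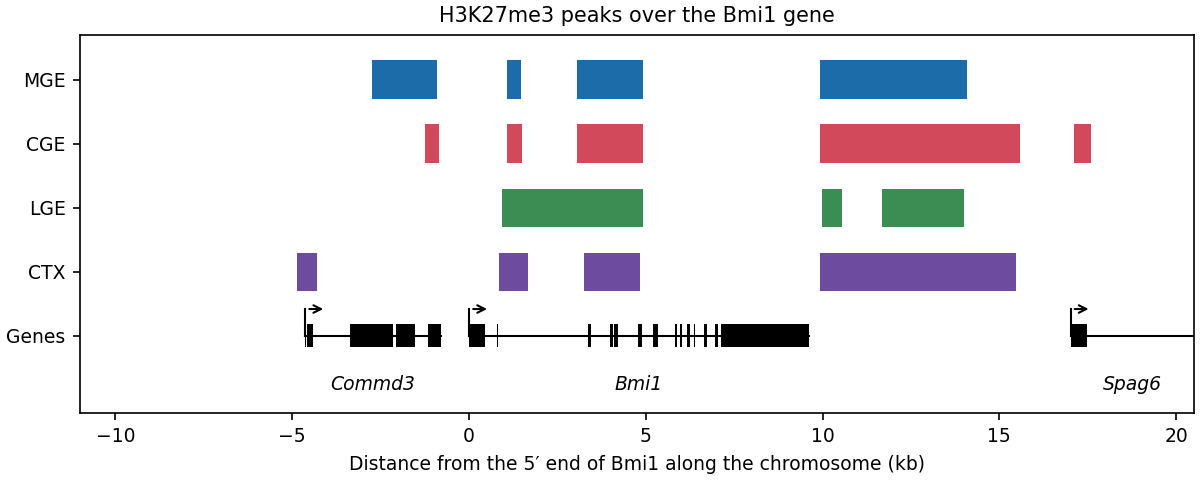
Map of H3K27me3 peaks (coloured bars, one row for each merged list) over *Bmi1* and its neighbours, with the distance from the *Bmi1* 5′ end in kb on the x axis, exons as black boxes and arrows at the 5′ ends. All lists have peaks inside and downstream of *Bmi1*, the downstream peak is split in LGE, and no peak covers the 5′ end.

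The RING ligase genes differed from each other in single lists. *Ring1* (chromosome 17, 34020792 to 34024680, minus strand) was not covered at all in MGE and CGE, whereas 7.55% of its window was covered in LGE and 1.85% in CTX. The LGE value came mostly from a 1500-base peak over the 5′ end, which covered 59.75% of the promoter and also *Mir219a-1*, *Mir219c* and *Gm26940*, which are annotated there. Its −log10 q was 1.64, above 12.5% of the LGE list, and with peaks limited to a q-value under 0.001 no base of the *Ring1* window stayed covered in any list. The remaining peaks, 303 bases in LGE and 442 bases in CTX, lay farther upstream, at *Slc39a7*, a zinc transporter gene, and *Rxrb*, a retinoid receptor gene. *Rnf2* (chromosome 1, 151458004 to 151500955, minus strand) lay wholly outside peaks in all lists, and the nearest peak upstream of it lay 69312 to 69415 bases away.

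The genes of the methyltransferase complex had few peaks, as did most protein-coding genes. *Suz12* (chromosome 11, 79993106 to 80034123, plus strand) had none in its window, with the nearest upstream peak at 18143 to 18286 bases and the nearest downstream peak at 159844 to 160615 bases from the 5′ end. *Ezh2* (chromosome 6, 47530139 to 47595341, minus strand), the catalytic subunit used most in dividing cells, had 1 peak in CTX, 367 bases wide over the 5′ end, with a −log10 q of 2.88. *Eed* (chromosome 7, 89954654 to 89980983, minus strand) had 1 peak in MGE, 301 bases wide over the 5′ end, with a −log10 q of 1.46, which also lay within the antisense transcript *E230029C05Rik*. Both peaks were among the narrowest of their lists, with 6.11% and 1.50% of peaks narrower, and each was seen in 1 list only.

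*Ezh1* (chromosome 11, 101191115 to 101226463, minus strand), the catalytic subunit known from non-dividing cells, was the only one of the 4 PRC2 members with a peak in every list. This peak spanned 364 bases (MGE), 1240 (CGE), 1004 (LGE) and 899 (CTX) and began 4181 to 4642 bases upstream of the 5′ end, so the promoter and the gene body had no covered base. Its −log10 q was 1.60, 3.57, 1.51 and 4.50, and no base of it was covered in all 4 lists. A window with a covered base in each list was found for 36.1% of all genes. With a q-value under 0.001 the *Ezh1* window had no covered base in MGE and LGE. With equal covered bases it had none in CGE and LGE. The neighbouring gene beyond the *Ezh1* 3′ end, *Cntnap1*, which encodes a protein of axon and myelin junctions, had its promoter covered to 80.1% (MGE), 90.5% (CGE), 99.35% (LGE) and 96.9% (CTX), and those promoter bases lie outside the *Ezh1* window.

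The next comparison was between regions. The covered share of the summed windows differed little, from 5.78% in MGE to 6.48% in CGE. MGE was also the lowest and CGE the highest over the windows of all protein-coding genes (1.54% and 1.99%). CTX exceeded the mean of the 3 eminences by 0.211 percentage points, and this difference changed its sign when the lists were limited to equal covered bases (−0.371), so no direction is read from it. For single genes, CTX minus the mean of the eminences was −0.561 percentage points at *Cbx8*, 0.671 at *Cbx2*, 1.77 at *Bmi1* and −0.666 at *Ring1*. The coverage of *Cbx8* spanned 0.961 percentage points over the 4 lists, that of *Cbx2* 5.90 and that of *Bmi1* 6.72.

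The positions of covered bases were shared more widely at *Cbx8* than at the other members. Of the bases covered in any list, those covered in all 4 made up 96.5% at *Cbx8*, 61.1% at *Cbx2*, 38.3% at *Bmi1* and 0% at *Ezh1* and *Ring1*, and 56.5% over the 9 windows. At *Cbx2*, 2851 of the 4363 bases covered in all 4 lists lay in the peak that the *Cbx8* window also holds. At the *Cbx2* promoter peak alone the share was 39.5%. Over the windows of all protein-coding genes this share was 39.1%. The overlap of a pair of lists, as bases under peaks in both relative to bases under peaks in either (Jaccard index), ranged from 85.5% (CGE and CTX) to 95.2% (MGE and LGE) for *Cbx2* and *Cbx8* together and from 49.2% (CGE and LGE) to 77.0% (CGE and CTX) for *Bmi1*. Over all protein-coding windows it ranged from 53.3% (MGE and CTX) to 64.4% (CGE and LGE). At *Bmi1* the 3 pairs with LGE were the lowest, at 49.2% to 51.7%.

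Other genes of the complexes and of the enzymes that undo their marks, 40 in all, were read in the same way. At least 50% of the promoter was covered for 3 of them (MGE), 8 (CGE), 5 (LGE) and 5 (CTX), beside 6.47%, 8.33%, 6.52% and 7.14% of all genes. At least 1 base of the window was covered for 23, 25, 22 and 25 of them, beside 43.3%, 46.0%, 44.7% and 47.2% of all genes. In all 4 lists the promoter was marked for 3 genes (4.72% of all genes) and in at least 1 list for 9 of 40 (10.1% of all genes).

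Among the 10 further genes of PRC2, no promoter was marked in all 4 lists, and only 4.72% of all promoters were. *Epop*, an accessory subunit, was marked in CGE (67.1%) and LGE (60.9%) and had 0% in MGE and CTX. *Jarid2*, which helps to recruit PRC2, reached 10.3% in CGE and 0% elsewhere, and *Rbbp4*, a histone-binding subunit shared with other complexes, ranged from 10.45% to 26.8%. *Mtf2*, *Rbbp7*, *Ezhip* (annotated as *AU022751*) and *Lcor* had no covered base in their windows in any list, which held for 44.3% of all genes.

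Of the further canonical PRC1 genes, 8 were read. The CBX genes among them, *Cbx6* and *Cbx7*, lie on chromosome 15 and had 0% of the promoter covered in each list. *Pcgf2*, the closest paralogue of *Bmi1*, was covered to 20.45% at the promoter in LGE and to 0% in the other lists. The polyhomeotic genes *Phc1*, *Phc2* and *Phc3*, whose products polymerise PRC1, had 0% at the promoter. A promoter without a covered base in any list was found for 67.2% of all genes. The windows of *Cbx7* (3.68% to 5.49%) and *Phc2* (1.75% to 2.23%) had covered bases in every list, beside 36.1% of all genes. The *Cbx6* window had 3.94% in CGE, 3.84% in CTX and 0% in MGE and LGE. Of the 8 windows, 4 had no covered base in any list, beside 44.3% of all genes.

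Among the 16 genes of variant PRC1, in which RYBP or YAF2 takes the place of a CBX protein, 7 promoters were marked in at least 1 list, beside 10.1% of all promoters. *Pcgf5*, a PCGF subunit of these complexes, was covered to 92.55% in MGE and 100% in the other lists, and *Rybp* to 65.45%, 73.45%, 71.3% and 55.65%. *Fbrsl1* had 0% in MGE and 89.85%, 87.1% and 94.25% in CGE, LGE and CTX, whereas its paralogues *Auts2* and *Fbrs* passed 50% only in CGE (53.45%, with 49.1% in MGE) and only in CTX (52%). *Yaf2* was marked in CGE alone (84.95%), and *Bcorl1*, a corepressor of the variant complexes, in CGE alone by a small margin (53.3%, against 37.6% to 48.55%). *Pcgf1* had 43.9% to 47.3% of its window covered with 0% at the promoter, and the adjacent homeobox genes *Tlx2* and *Lbx2* were covered to 100% in each list, a neighbourhood looked up after the *Pcgf1* value was seen.

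Among the 6 genes of enzymes that remove the marks, *Asxl3*, a partner of the H2A deubiquitinase BAP1, was marked in all lists, at 79.8% (MGE), 97.5% (CGE), 83.8% (LGE) and 100% (CTX). *Bap1* itself and *Asxl2* had no covered base in their windows in any list, as was the case for 44.3% of all genes. The H3K27 demethylase gene *Kdm6a* reached 15.85% in MGE and 21.1% in LGE with 0% in CGE and CTX, and *Kdm6b* had 0% at the promoter.

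**Figure D5:**
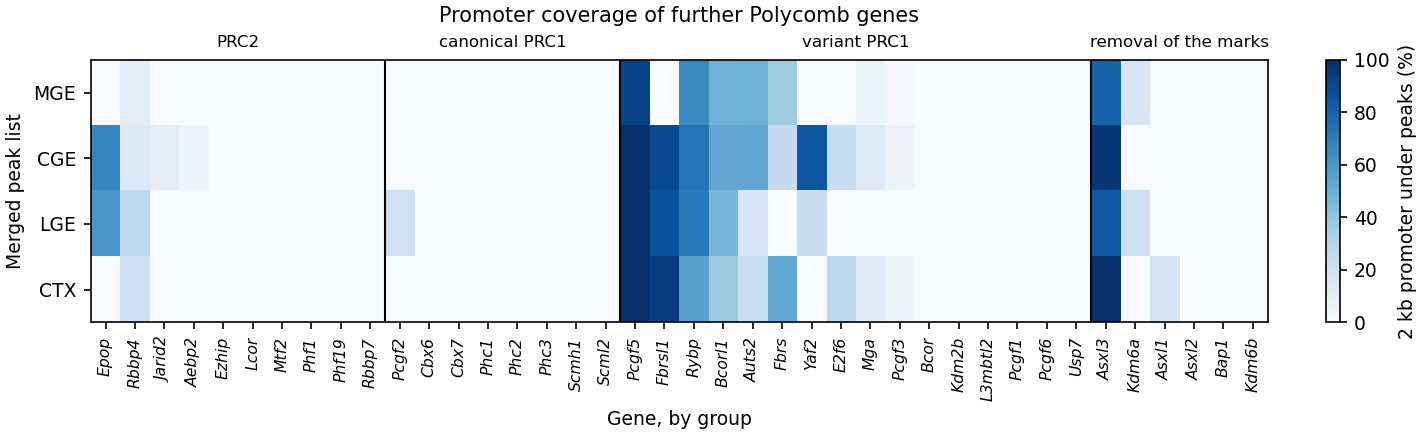
Heat map of the percentage of the 2 kb promoter under H3K27me3 peaks for 40 further Polycomb genes (columns, grouped by complex) in the merged lists of MGE, CGE, LGE and CTX (rows). *Pcgf5*, *Rybp* and *Asxl3* are at or above 55.65% in every list, and *Epop*, *Fbrsl1* and *Yaf2* differ between lists.

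Starts rich in CG were found at genes with and without peaks in their windows. In the 300 bases around the RefSeq start (250 before it and 50 after), which were found for 8 of the 9 genes, *Suz12* held 41 CG dinucleotides, *Ring1* 37, *Ezh2* 31, *Rnf2* 30, *Cbx8* 24, *Ezh1* and *Bmi1* 23 and *Eed* 17, against a median of 7 over 32851 promoters. The gene not found was *Cbx2*. All 8 are therefore richer in CG than the median promoter, and the gene with the most, *Suz12*, had no peak in its window. Peaks reached into these 300 bases only for *Ring1* in LGE, *Ezh2* in CTX and *Eed* in MGE, so for *Cbx8* and *Bmi1* in no list. The motif GCGGGAA, the core of an E2F site, occurred on either strand in the 300 bases of *Suz12* and of no other matched member, and in 4.60% of all promoters. The E-box CACGTG occurred in those of *Cbx8* and *Bmi1* and in 7.15% of all promoters. These are matches of letters within a window and show no binding.

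CG density was read only in the joint window of *Cbx2* and *Cbx8* and in the *Bmi1* window. Covered bases there were richer in CG than uncovered ones, though by little at *Bmi1* for bases under peaks in 1 to 3 lists. In the joint window of *Cbx2* and *Cbx8*, bases under peaks in all 4 lists held 3.43 CG per 100 bases, those under peaks in 1 to 3 lists 6.16, and those under none 2.08. In the *Bmi1* window the values were 4.90, 2.65 and 2.41, with 6.16 per 100 bases in the part of the downstream peak covered in all 4 lists. The 2 chromosomes as a whole held 0.904 per 100 bases.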

How the data were processed

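H3K27me3 CUT&Tag peaks of 11 samples were analysed as 4 merged lists. The authors aligned reads to GRCm38 (mm10) with Bowtie2, removed blacklisted reads and, with Picard, duplicates, merged replicates with SAMtools and called broad peaks with MACS, whose version and control are not given in the sources used here. The deposited fold enrichment (a ratio) and the deposited −log10 q-value of each peak were used as written. Of the 3 samples each of CGE, LGE and CTX, 2 share a replicate number. A merged list weighs samples by their reads, and deeper sequencing can add weak peaks.

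Peaks on chromosomes 1 to 19 and X were kept (2 to 4 mitochondrial peaks left out per list). Covered bases were counted in windows of GENCODE M21 genes with Python 3.11.15 and numpy 2.4.6, checked on simulated intervals, and drawn with matplotlib 3.10.9. Coordinates count from 1. Members and lists were chosen with earlier results of these data known. Named genes were the members; up to 10 further genes marked in at least 1 list, by mean promoter coverage; genes under peaks of member windows; and, for 2 members, the 3 genes on other chromosomes with the most similar peak profile. One item is not reported here. Further genes named outside this rule were picked after their values were seen.

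The alternatives kept only peaks with q-values under 0.001, joined peaks with gaps under 3 kb, or used equal numbers of strongest peaks, strongest peaks of equal covered bases, windows of 5 kb either side, of the gene body alone and of 10 kb either side of the 5′ end, and promoters taken 2 kb either side of the 5′ end, marked by any 1 base, or at any transcript.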

Additional observations from a re-analysis of the deposited data

How the results depend on the processing

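No paired analysis was possible because samples were merged before peaks were called, so no replicate could be paired or left out. The cause of the following changes was not tested unless the setting itself shortens the window or the list. With a q-value under 0.001, 3 members had a covered base in MGE and 3 in LGE, and 1 promoter was marked in CTX, as with equal covered bases (1). With the gene body alone, 3 members in MGE and 2 in CGE had a covered base, against 32.3% and 33.9% of all genes. The covered share of the summed windows was then 1.53%, 1.52%, 2.29% and 1.83% in MGE, CGE, LGE and CTX, against 10.8%, 11.2%, 12.2% and 11.2% for 10 kb either side of the 5′ end, and 3.45%, 4.17%, 3.78% and 4.01% with *Cbx8* left out. CTX minus the mean of the eminences turned to −0.299 points (q-value under 0.001), −0.196 (peaks joined), −0.371 (equal covered bases), −0.0360 (5 kb either side) and −0.156 (10 kb either side of the 5′ end), and stayed positive at 0.101 (equal numbers of peaks) and 0.0471 (gene body alone). Taking 2 kb either side of the 5′ end as promoter left 0, 0, 1 and 1 members marked in MGE, CGE, LGE and CTX, and 4 further genes in CGE and 3 in CTX. Equal covered bases left 5 further genes in CGE. Marking by any 1 base gave 10, 15, 11 and 13 of the 40 further genes, against 22.6%, 24.7%, 24.2% and 26.2% of all promoters. The promoter of any transcript gave 8 in MGE, 11 in LGE and 9 in CTX. No share over all genes was taken for the stricter q-value, equal covered bases, 2 kb either side or any transcript. Those counts are therefore not compared with all genes. The lists hold no read counts, so a missing weak peak is a peak not called at the depth of its list, and depth differed between regions.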

Other observations

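Other protein-coding genes on other chromosomes had peak profiles like those of *Cbx8* and *Bmi1*. Likeness was the ratio of summed minima to summed maxima over 80 values, the covered share of 1 kb bins from 10 kb before to 10 kb after the 5′ end in the 4 lists, and is a description that rests on the same lists. For *Cbx8* the closest were *Ebf3*, a transcription factor gene of neuronal differentiation (0.775), *Hoxa10*, a homeobox gene of posterior identity (0.717), and *Insl3*, which encodes a hormone of the testis (0.660). Within 10 kb of its 5′ end *Cbx8* was covered to 64.0% (MGE), 64.6% (CGE), 63.6% (LGE) and 63.4% (CTX), beside 49.0%, 49.1%, 50.1% and 49.9% for *Ebf3*. For *Bmi1* the closest were *Adgrl3*, an adhesion receptor gene (0.560), *Pmp22*, which encodes a myelin protein (0.527), and *Zadh2* (0.513), so that its profile had less close counterparts.

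*Kdm6b*, which encodes an H3K27 demethylase, had 12.2% of its window covered (MGE), 17.4% (CGE), 16.6% (LGE) and 14.0% (CTX), although its promoter had no covered base. The promoter of its neighbour *Tmem88* was covered to 88.6% in MGE and to 100% in the other lists.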
